A study of Rattus norvegicus with 7 samples.

Results

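The change in gene expression between 6 and 12 h of sodium fluoride (NaF) was taken from the arrays of rat oral epithelial ROE2 cells, with the change of vehicle-treated cells over the same interval subtracted. For each probe set, the shift was the NaF 12 h signal minus the NaF 6 h signal, minus the same difference of the vehicle arrays, all on the log2 scale. Members were the probe sets with 1 gene symbol that reached a log2 signal of 7 on any of the 4 arrays, and they numbered 9658 of the 31099 on the array. These probe sets named 7771 of the 14217 genes on the array, and each gene was taken at its member of highest mean signal.

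ROE2 is an immortal line with epithelial-like morphology from the tongue of an 18-day-old fetus of a transgenic Wistar rat, which carries the pSVtsA58ori(-)-2 gene for a temperature-sensitive SV40 large T-antigen. The T-antigen is thus shared by every group, and all values come from 1 line. Cells received NaF at 2 mM in sterilized water, or the water alone as vehicle, for 3, 6 or 12 h. A further vehicle array, labelled control, stands for 0 h. The groups compared here were vehicle 6 h, vehicle 12 h, NaF 6 h and NaF 12 h, with 1 array each. Every array held pooled RNA of 3 independent experiments, so no group had a replicate and the shift itself has no p-value. A shift of log2 1, which is 2-fold, was taken as the threshold.

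Proteins that enter the endoplasmic reticulum (ER) are folded there by chaperones and by enzymes that form disulfide bonds. When unfolded proteins build up, the sensors PERK, IRE1 and ATF6 start the unfolded protein response. PERK slows translation and raises the transcription factors ATF4 and CHOP, whose targets serve amino acid supply and cell death, whereas ATF6 and the IRE1 product XBP1 raise chaperones and the machinery of ER-associated degradation (ERAD). Immediate early genes, in contrast, are transcribed within minutes of a stimulus and are usually switched off again soon.

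The 4 arrays had nearly equal median signals, and all 7 lay between 5.32 and 5.35 on the log2 scale. Vehicle 6 h and vehicle 12 h correlated at 0.99866 over all probe sets and NaF 6 h and NaF 12 h at 0.989741. Of 15 epithelial markers, 13 reached the signal limit, but the simple keratins Krt18 and Krt19 stayed near 3. Of 7 squamous markers on the array 3 reached the limit, Krt13, Sprr1a and Dmkn. In vehicle 6 h Krt4, Krt1 and Ivl read 3.67, 3.39 and 3.58, and Krt10 read 6.91. No fibroblast or endothelial marker on the array reached the limit, and of the leukocyte, muscle and nerve markers 1 each did, Cd14, Myh1 and Tubb3. The gap between the 3′ and 5′ beta-actin controls was 1.53 and 1.54 in vehicle 6 h and 12 h and 1.77 and 2.15 in NaF 6 h and 12 h, so the array with the latest NaF sample had the widest gap of the 4. Outside the 4, vehicle 3 h and NaF 3 h had wider gaps, 2.83 and 2.39. The part of these gaps in the shifts and in the 3 h differences was not tested. The 3′ Gapdh control read 13.24 and 13.26 in vehicle 6 h and 12 h and 13.34 and 13.27 in NaF 6 h and 12 h.

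The shift reached 2-fold upward in 311 probe sets, which is 3.22% of the members, and downward in 158, which is 1.64%, or 469 in both directions (4.86%). By gene these were 247 of 7771 upward (3.18%) and 139 downward (1.79%), whereas the median shift of all genes was 0.00. Vehicle alone moved little: 0 of 9658 probe sets differed 2-fold between vehicle 6 h and 12 h, the largest difference was 0.67, and 95% of the members stayed within 0.200, against 0.950 for the NaF arrays. Since there was no replicate for the shift, limma tested NaF 12 h against NaF 6 h with the spread taken from the 4 vehicle arrays over time, and the lone NaF arrays were assumed to vary like them. The test does not subtract the vehicle change. At an adjusted p under 0.05 it called 2126 member probe sets higher (22%) and 1827 lower (18.9%). After quantile normalization the balance turned, with 2103 higher and 2235 lower. The shifted probe sets were chosen on the same NaF arrays that limma compares, so the 458 of 469 that it called are no separate evidence of the shift, and the same holds for the limma values of single shifted genes given below. "Rose" and "fell" below refer to these limma calls. Just inside and outside the threshold lay shifts of 1.00035 and 0.99978 upward and of -1.00224 and -0.99908 downward, so the 2-fold limit does not divide separate groups of genes.

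The 386 shifted genes were sorted by their distance from vehicle at 6 h, with 0.5 on the log2 scale as the limit. Those within it started late, 112 upward and 106 downward. Those already displaced in the same direction kept rising (32 genes) or kept falling (19). Those displaced in the opposite direction returned, 14 from above vehicle and 103 from below. Sorting and shift share the 6 h arrays, which favours returns, and so the 3 h arrays, which neither used, are given beside them. Genes that started late upward had median differences between NaF and vehicle of -0.19, -0.08 and 1.11 at 3, 6 and 12 h, and 100 of the 112 were within 0.5 of vehicle at 3 h. For the late falls the medians were -0.02, -0.12 and -1.36, with 104 of 106 within 0.5 at 3 h. Genes returning from below had medians of -0.60, -0.90 and 0.31. At 3 h, 101 of these 103 were already below vehicle and 64 were more than 0.5 below, against 4266 and 333 of the 7385 genes that were not shifted. All 14 returning from above were above vehicle at 3 h, where their median was 1.25.

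**Figure D1:**
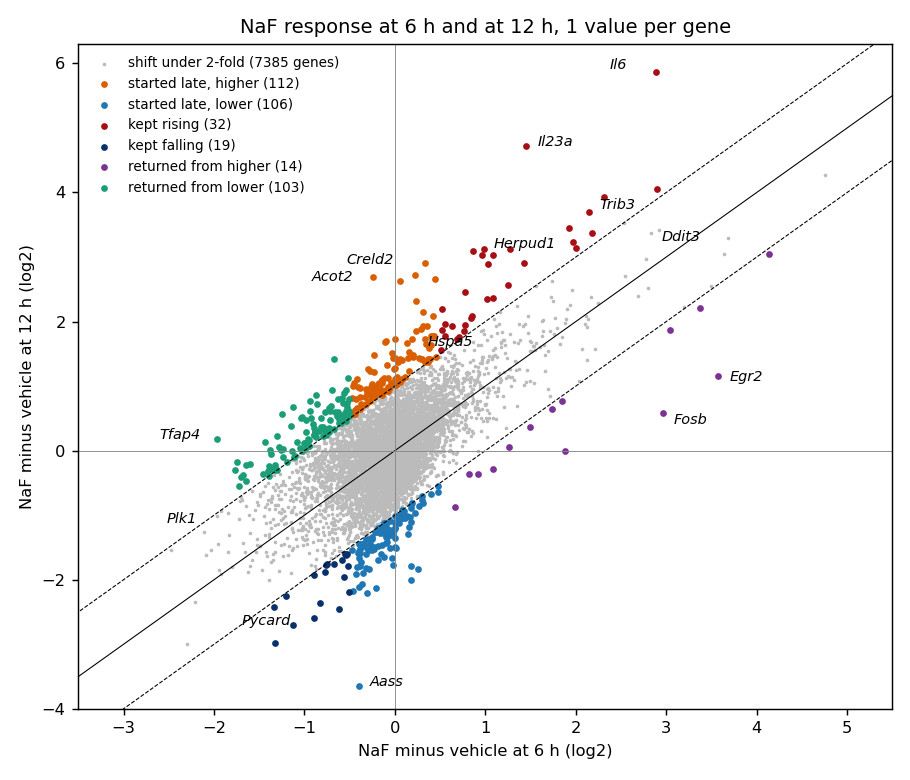
Difference between NaF and vehicle at 6 h (x axis, log2) and at 12 h (y axis, log2), 1 point per gene for 7771 genes. The solid line marks equal differences and the dashed lines a 2-fold shift; the 386 coloured genes lie on or beyond them, with Il6 and Il23a highest and Aass lowest at 12 h.

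**Figure D2:**
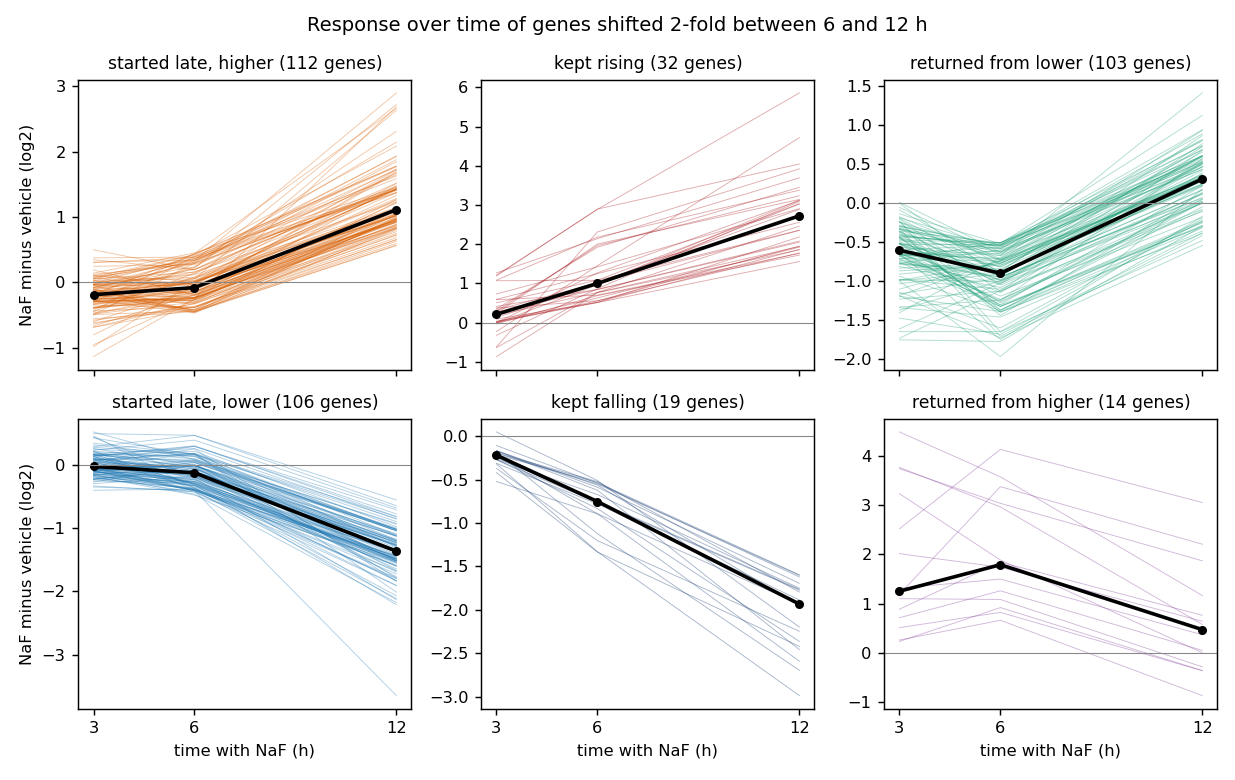
Difference between NaF and vehicle (log2) at 3, 6 and 12 h for the shifted genes of each course, with 1 thin line per gene and the median in black. The vertical scale differs between panels; only the 3 h values were not used to sort the genes, and the genes returning from below start mostly under 0.

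Genes with a strong response at 6 h took several courses. Of 168 genes that were 2-fold or more above vehicle at 6 h, 16 shifted 2-fold further and 24 by 0.5 to 2-fold, 99 stayed within 0.5 of their difference at 6 h, and 18 came back by 0.5 to 2-fold and 11 by 2-fold. Their median difference from vehicle was 1.40 at 6 h and 1.62 at 12 h, and 135 were still 2-fold above vehicle. Of 223 genes that were 2-fold or more below at 6 h, 4 shifted 2-fold further, 39 came back 2-fold and 77 by 0.5 to 2-fold. Of these 223, 81 were still 2-fold lower at 12 h, and 62 were within 0.5 of vehicle. Read backward, 138 of the 395 genes that were 2-fold above vehicle at 12 h and 206 of the 398 that were 2-fold below had been within 0.5 of it at 6 h. These counts share the 6 h arrays at both ends and are given as description.

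Among folding factors of the ER lumen, 11 of 22 listed genes started late as sorted above. Whether they began together between 6 and 12 h cannot be seen from these arrays. In what follows, the 4 signals of a gene are log2 signals in the order vehicle 6 h, vehicle 12 h, NaF 6 h and NaF 12 h. Hspa5, or BiP, the most abundant of these chaperones, read 12.28, 11.85, 12.52 and 13.70. It stood apart on the NaF 12 h array alone, with a shift of 1.61 (limma NaF 12 h minus NaF 6 h 1.18, standard error 0.22, adjusted p = 0.0105). Its vehicle signal dropped by 0.43, which adds to the shift. Ero1b, the oxidase that feeds disulfide bonds into client proteins, read 6.88, 6.62, 7.21 and 9.52 and shifted by 2.57, a 5.95-fold change. Creld2, a small ER protein induced by folding stress, read 9.79, 9.34, 10.01 and 12.07 and shifted by 2.51. In each of these genes the NaF 12 h array was the high one and the other 3 did not reach it. Ero1b and Creld2 rose, with limma adjusted p = 0.00231 and 0.00264. Dnajb9, a co-chaperone of BiP, and Sdf2l1, a partner of its DNAJ proteins, shifted by 1.84 and 1.67 and rose too. The genes named in this paragraph already lay from 0.22 (Creld2) to 0.42 (Sdf2l1) above vehicle at 6 h.

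Some of the late chaperone genes have the ER stress element in their promoters. The ER stress element, which ATF6 binds together with NF-Y, is written CCAAT, 9 bases and CCACG, and was searched on both strands in the 250 bases before each start in RefSeq (GRCr8). It stood in 6 of 96 matched genes that started late upward (6.25%), in 15 of 6602 matched genes of all 7771 (0.227%), and in 21 of 27457 promoters in the table (0.0765%). In the list of ER chaperones and disulfide enzymes it stood in 5 of 10 matched members with a 2-fold shift and in 2 of the other 8. These are counts of letters and not of bound sites. The stretches below belong to those 5 members and are shown because they carry the element, which is in capitals. They run 5′ to 3′ toward the start and end at or before the base preceding it. Hspa5 and Dnajc3 hold the element as written, and Creld2, Hsp90b1 and Ero1b hold it on the other strand, where it reads CGTGG, 9 bases and ATTGG. Hsp90b1 has 1 more outside the stretch shown.
Hspa5, chr3:38452906-38453015, plus strand: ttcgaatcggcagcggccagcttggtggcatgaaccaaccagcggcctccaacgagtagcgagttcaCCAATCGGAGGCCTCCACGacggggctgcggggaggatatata
Dnajc3, chr15:102432489-102432598, plus strand: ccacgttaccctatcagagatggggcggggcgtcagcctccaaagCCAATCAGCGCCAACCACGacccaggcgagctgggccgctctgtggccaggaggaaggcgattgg
Creld2, chr7:121789194-121789303, plus strand: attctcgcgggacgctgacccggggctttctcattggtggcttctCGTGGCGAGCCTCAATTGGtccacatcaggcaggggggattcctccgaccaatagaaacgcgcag
Hsp90b1, chr7:23012301-23012410, minus strand: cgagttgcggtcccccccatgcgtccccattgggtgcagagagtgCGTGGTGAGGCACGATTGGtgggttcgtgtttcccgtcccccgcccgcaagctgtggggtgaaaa
Ero1b, chr17:92941432-92941541, plus strand: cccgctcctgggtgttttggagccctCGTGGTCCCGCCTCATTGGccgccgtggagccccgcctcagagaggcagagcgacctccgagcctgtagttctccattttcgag

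Of the 22 ER chaperones and disulfide enzymes on the array, all 22 were members, 11 shifted 2-fold upward and 0 downward, and 18 rose and 0 fell in limma, with a median shift of 1.02. Over all 7771 genes the corresponding shares were 3.18% upward and 1.79% downward by shift and 22.1% and 20.3% by limma. For this list 81.8% rose. Where a list described here had 0 limma calls in a direction, at most 1 member reached an unadjusted p under 0.05 in it. The list stood at medians of -0.07 at 3 h, 0.14 at 6 h and 1.03 at 12 h against vehicle. Beside Hspa5, the 2-fold members included Hsp90b1, the chaperone GRP94 (1.11), Pdia4, a disulfide isomerase (1.27), Dnajc3, a co-chaperone that inhibits PERK (1.28), and Manf, a secreted ER protein (1.33). Members without a call were Ppib (0.23), Canx (0.22), Sil1 (0.17) and Dnajc10 (-0.09).

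Of 24 ERAD and translocon genes that passed the limit, 5 shifted 2-fold upward and 15 rose (62.5%), none fell, and the median shift was 0.45. The 2-fold members were Herpud1, Sel1l, Edem2, Xbp1 and Syvn1. Sel1l, which with Syvn1 forms the ubiquitin ligase complex of ERAD, read 6.06, 6.10, 5.95 and 7.78, with only the last array above its neighbours. Edem2, which trims mannose from misfolded glycoproteins, shifted by 1.45. Xbp1, whose spliced form drives chaperone genes, shifted by 1.20, and by 0.95 with the mean of the vehicle arrays as baseline, below 2-fold. Herpud1, a scaffold of the same ligase, was already higher at 6 h and kept rising, reading 9.27, 8.98, 10.23 and 12.01 (shift 2.06, limma adjusted p = 0.00231). The kinase PERK itself (Eif2ak3) read 7.32, 7.26, 6.93 and 8.23, with a shift of 1.37.

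**Figure D3:**
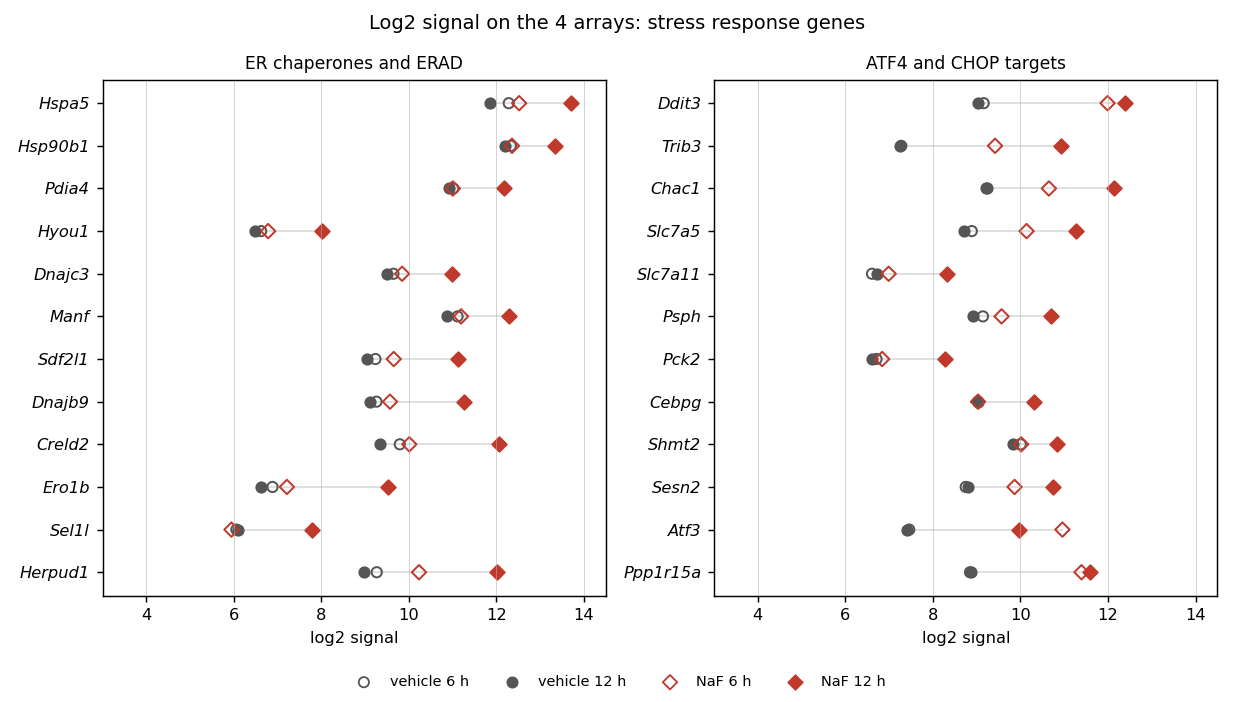
Log2 signal (x axis) of 12 genes of ER folding and ERAD (left) and 12 targets of ATF4 and CHOP (right) on the vehicle 6 h, vehicle 12 h, NaF 6 h and NaF 12 h arrays. For Hspa5 and most genes on the left the NaF 12 h signal alone stands apart, whereas Ddit3, Trib3 and Chac1 were already above vehicle at 6 h and Atf3 was lower at 12 h than at 6 h.

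Targets of ATF4 and CHOP with a 2-fold shift included genes already up at 6 h and genes within 0.5 of vehicle then. Of 28 targets that passed the limit, 9 shifted 2-fold upward, 22 rose (78.6%) and 0 fell, with a median shift of 0.71. The list stood at medians of 0.12, 0.54 and 1.36 against vehicle at 3, 6 and 12 h. Trib3, a pseudokinase that restrains ATF4 and AKT, read 7.28, 7.24, 9.42 and 10.93, and its 2 other probe sets shifted by 1.73 and 2.01. Chac1, which degrades glutathione, read 9.22, 9.23, 10.65 and 12.14 and Slc7a5, a transporter of large neutral amino acids, 8.89, 8.71, 10.14 and 11.27. All of them were above vehicle at 3 h, by 1.27, 0.73 and 0.60, and kept rising.

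Other members of the list were close to vehicle until 6 h. Cebpg, a bZIP partner of ATF4, read 9.03, 9.03, 9.03 and 10.31 (shift 1.28, limma standard error 0.08, adjusted p = 0.00231). Pck2, the mitochondrial phosphoenolpyruvate carboxykinase, read 6.71, 6.60, 6.84 and 8.28, and Psph, the last enzyme of serine synthesis, 9.14, 8.92, 9.57 and 10.70. Slc7a11, the cystine transporter, and Shmt2, a mitochondrial enzyme of serine and folate metabolism, shifted by 1.21 and 1.00. Thus 3 genes of this list kept rising and 6 started late, among the latter Slc7a1, a transporter of basic amino acids (1.08).

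The factors that give the list its name, and others that act with them, were also measured. Ddit3, the gene of CHOP, read 9.16, 9.02, 11.99 and 12.39, so most of its difference was present at 6 h, and its shift was 0.53. Atf4 read 11.95, 11.94, 12.97 and 13.35, with a shift of 0.38. Both rose in limma (adjusted p = 0.0219 and 0.0195), and both calls were lost without the vehicle 6 h array. Over the alternatives the limma adjusted p ran from 0.0102 to 0.0508 for Ddit3 and from 0.004 to 0.0557 for Atf4, with the highest value at that omission. Ppp1r15a, which lets translation resume, had a shift of 0.17 (limma adjusted p = 0.283). Atf3, a bZIP factor of stress, stood at differences of 3.50 and 2.55 from vehicle at 6 and 12 h, with a shift of -0.94 (limma adjusted p = 0.0507). It was called lower without the vehicle 3 h array (0.0321) and with a variance trend (0.0319), and its limma adjusted p went up to 0.101 without the vehicle 0 h array.

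The letters of the amino acid response element, TGATG, any base and AA on either strand, stood in 5 of 26 matched genes that kept rising (19.2%), in 113 of 6602 matched genes (1.71%) and in 899 of the 27457 promoters (3.27%). The 5 were Trib3, Chac1, Herpud1, Bcl2a1 and Tslp. The stretches of Trib3 and Chac1 are shown as the pair of ATF4 targets among them, with the element, here on the other strand, in capitals.
Trib3, chr3:161275534-161275643, minus strand: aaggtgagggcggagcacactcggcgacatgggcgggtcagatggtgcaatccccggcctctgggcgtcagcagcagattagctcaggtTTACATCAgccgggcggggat
Chac1, chr3:126795913-126796022, plus strand: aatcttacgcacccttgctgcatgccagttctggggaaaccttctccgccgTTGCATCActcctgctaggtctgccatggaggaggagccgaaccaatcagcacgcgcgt

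Enzymes that charge tRNAs rose without reaching 2-fold. Of 19 cytosolic aminoacyl-tRNA synthetases, 12 rose (63.2%), 1 fell (5.26%) and 0 shifted 2-fold, with a median shift of 0.51. Wars1 for tryptophan (0.94), Aars1 for alanine (0.85) and Eprs1 for glutamate and proline (0.82) moved most, and Qars1 for glutamine fell with a shift of -0.42. Aars1 read 11.64, 11.64, 11.59 and 12.44 on the 4 arrays.

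Genes of ribosome assembly were higher at 12 h as a broad and shallow group. Of 33 ribosome biogenesis genes, 28 rose (84.8%), 0 fell and 4 shifted 2-fold, with a median shift of 0.74. Their medians against vehicle were -0.03, -0.07 and 0.59 at 3, 6 and 12 h. Rrs1, which brings 5S ribonucleoprotein into the large subunit, read 10.29, 10.25, 9.97 and 11.20 (shift 1.28). Polr1b, the second largest subunit of RNA polymerase I, read 8.32, 8.15, 7.93 and 8.98 (shift 1.21). In both, NaF was below vehicle at 6 h and above it at 12 h. Wdr43 (1.04) and Utp3 (1.02), parts of the small subunit processome, were just past the limit, and after quantile normalization they read 0.98 and 0.99.

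The proteins of the finished ribosome did not follow. Among 24 cytosolic ribosomal protein genes, 0 were called in either direction by limma and 0 shifted 2-fold, with a median shift of -0.01 and a range from -0.08 for Rps24 to 0.14 for Rpl12. A dimmer probe set of Rps24 shifted by 0.70. Most of these genes are among the brightest on the array (Rpl12 at 13.45, 13.45, 13.59 and 13.72). Whether their brightness limits the shift was not tested.

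The largest course after the late starts was the return from below, with 103 genes. At 12 h, 67 of them were within 0.5 of vehicle, 35 were more than 0.5 above it and 1 remained more than 0.5 below. Tfap4, a transcription factor that binds E-box sequences, read 7.83, 7.78, 5.86 and 7.96 and had the largest shift, 2.15 (limma standard error 0.17, adjusted p = 0.00231). Its NaF 6 h signal lay far under the other 3 arrays, which lay close together, and at 3 h it was 1.00 below vehicle. Gmppb, which makes GDP-mannose for glycosylation, went past vehicle, reading 6.57, 6.40, 5.90 and 7.81.

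Several other named genes of this course encode nuclear regulators. Mideas, a subunit of a histone deacetylase complex, read 8.66, 8.70, 7.41 and 9.27. Zfp133, a zinc finger protein, read 7.19, 7.19, 6.07 and 7.87 and was 1.23 below vehicle at 3 h. Nr2f2, an orphan nuclear receptor, Irx1, a homeodomain factor, and Tet3, a DNA demethylase, came back close to vehicle, at -0.17, 0.01 and -0.18 at 12 h. Slc19a1, the reduced folate carrier, read 7.84, 7.77, 6.96 and 8.64. Rcl1, a factor of rRNA processing, shifted by 1.64, Polr3a, the largest subunit of RNA polymerase III, by 1.45 and Imp3, also of rRNA processing, by 1.37. Of the 33 members of the ribosome biogenesis list 0 took this course. That list holds neither Rcl1 nor Imp3, so the 0 does not cover all genes of ribosome assembly.

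By the shift, the cytokine genes Il23a and Il6 ranked highest of all upward. Il23a, the specific subunit of interleukin-23, read 7.10, 6.70, 8.56 and 11.42 and shifted by 3.27, a 9.62-fold change (limma standard error 0.23, adjusted p = 0.00231). At 3 h it was at -0.22 from vehicle. Il6 read 4.15, 3.75, 7.04 and 9.61 and shifted by 2.97, and its difference was already 1.21 at 3 h. Its vehicle signals lie near the floor of the array, so the differences from vehicle are limited from below. Between the NaF arrays alone Il6 differed by 2.57, less than the 2.77 of Acot2, a gene outside all lists with a shift of 2.93. Tslp, a cytokine of epithelia that acts on dendritic cells, read 5.27, 5.30, 8.17 and 9.35, so that most of its rise came before 6 h (shift 1.15). Cxcl12, a chemokine, started late with 8.03, 7.99, 8.37 and 9.36.

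Of 20 cytokines and chemokines that passed the limit, 8 shifted 2-fold upward and 1 downward, with a median shift of 0.74. However, limma called only 4 higher (20%, near the 22.1% of all genes) and 0 lower. Without the vehicle 3 h array 1 was called lower (Cx3cl1, limma adjusted p = 0.0339). The vehicle arrays themselves differed for several of them. Cxcl2, a neutrophil chemokine, read 9.19, 9.45, 8.25 and 7.73 in vehicle at 0, 3, 6 and 12 h and 10.56 and 11.65 in NaF at 6 and 12 h, so its shift of 1.61 was not called (limma standard error 0.83, adjusted p = 0.338). It was called higher where the vehicle change was fitted as a line over time (limma adjusted p = 0.0301, against 0.239 to 0.402 without 1 vehicle array). Cxcl3 had a shift of 1.35 (limma adjusted p = 0.0572), or 0.86 with the mean of the vehicle arrays as baseline. The limma adjusted p of Cxcl3 ran from 0.0097 with the line over time and 0.013 without vehicle 12 h to 0.111 without vehicle 3 h. Clcf1 (1.28) and Csf3 (1.09) were not called either. Tnf was the member with the opposite sign, at 5.55, 5.25, 9.69 and 8.30 (shift -1.08, limma adjusted p = 0.0963).

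NF-kB subunits and inhibitors had no call: of 11, 0 rose, 0 fell and 0 shifted 2-fold, with a median shift of -0.11. Their values ran from 0.50 for Birc3, an inhibitor of cell death, to -0.59 for Tnfaip3, a brake on NF-kB signaling (limma adjusted p = 0.18 and 0.0556). Tnfaip3 was called lower without the vehicle 12 h array (limma adjusted p = 0.0287), and the count of lower calls after quantile normalization was also 1. Among interferon-related genes, Rsad2, which makes an antiviral nucleotide, kept rising with 7.04, 6.74, 8.02 and 9.87 (shift 2.14, limma adjusted p = 0.0199), and the call was lost without the vehicle 6 h array. Of 13 such genes 2 rose (15.4%) and 4 fell (30.8%), against 22.1% and 20.3% of all genes. Among them 0 rose without the vehicle 6 h array and 4 without vehicle 3 h. Gbp2, a guanylate-binding protein (-0.96), and Irf7, a regulator of interferon genes (-0.86), were among those that fell.

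**Figure D4:**
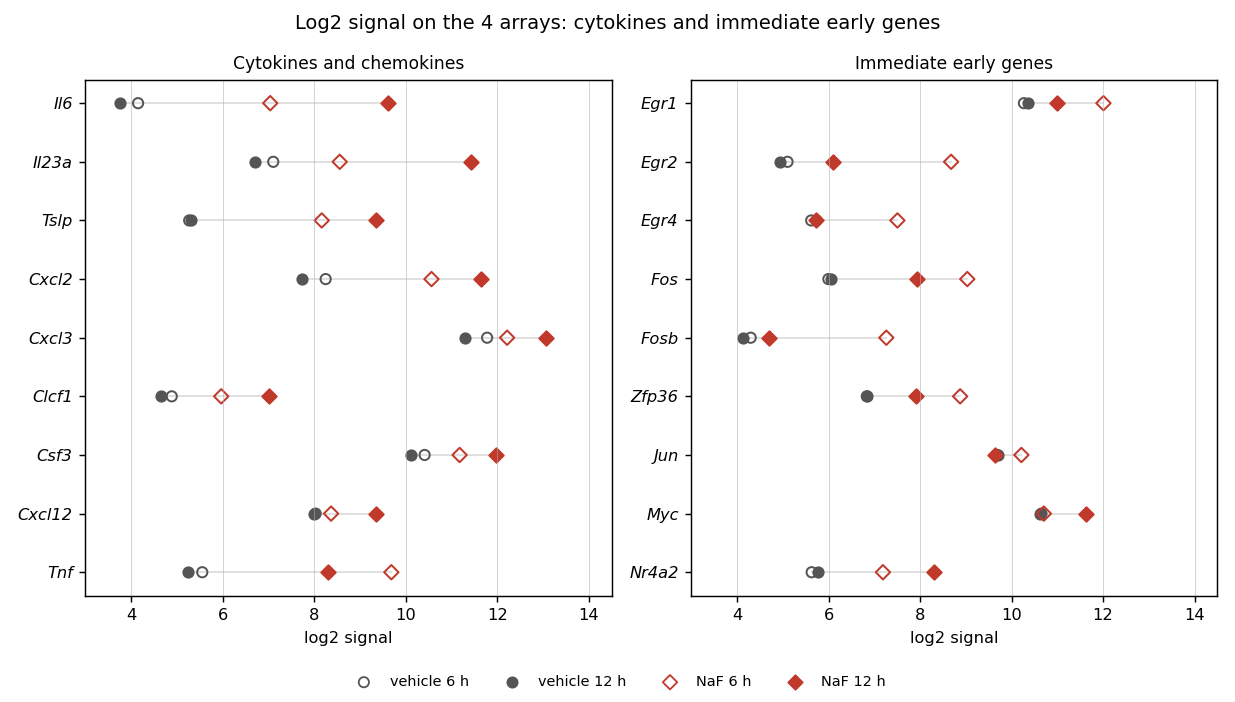
Log2 signal (x axis) of 9 cytokine genes (left) and 9 immediate early genes (right) on the vehicle 6 h, vehicle 12 h, NaF 6 h and NaF 12 h arrays. The NaF 12 h signal lies to the right of NaF 6 h for Il6 and Il23a and to the left of it for Egr2, Egr4 and Fosb.

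Immediate early genes led the return from above. Egr2, a zinc finger factor of the EGR family, read 5.10, 4.94, 8.68 and 6.10, a shift of -2.41, and NaF 12 h lay closer to vehicle than to NaF 6 h (limma standard error 0.22, adjusted p = 0.00231). Fosb, a subunit of the AP-1 factor, read 4.30, 4.12, 7.26 and 4.69 (shift -2.39), and Egr4 read 5.62, 5.72, 7.51 and 5.72, back at the vehicle signal at 12 h. At 3 h these genes had been higher still, 4.49, 3.77 and 3.23 above vehicle. Fos itself read 6.00, 6.06, 9.03 and 7.93, with a shift of -1.17 that was not called (limma adjusted p = 0.0515, from 0.013 without the vehicle 3 h array to 0.104 without vehicle 12 h). Egr1 fell, with a shift of -1.10, but its call (limma adjusted p = 0.0258) was lost without the vehicle 6 h array (0.0654) or the vehicle 12 h array (0.0595).

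Other immediate early genes went the opposite way. Of 25 that passed the limit, 4 rose (16%) and 7 fell (28%), against 22.1% and 20.3% of all genes. In this list 0 shifted 2-fold upward and 5 downward, with a median shift of -0.06. Myc, a transcription factor of growth and ribosome synthesis, read 10.65, 10.62, 10.71 and 11.62 after lying 2.11 below vehicle at 3 h, and rose with a shift of 0.96. Nr4a2, an orphan nuclear receptor, read 5.63, 5.76, 7.19 and 8.32 and rose with a shift of 0.99. Zfp36, which degrades cytokine mRNAs, fell with a shift of -0.96, and Dusp1, the phosphatase that turns off MAP kinases, with -0.97. The Dusp1 call (limma adjusted p = 0.0354) did not hold when vehicle 0 h (0.0741), 6 h (0.0564) or 12 h (0.0551) was left out.

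Serum response factor binds the CArG box, CC and GG with 6 letters A or T between them. This box stood in 5 of 17 matched immediate early genes (29.4%), in 2 of 10 matched genes that returned from above, Egr1 and Egr2, in 85 of 6602 matched genes (1.29%) and in 412 of the 27457 promoters (1.5%). The stretch of Egr2, the gene with the largest return, is shown with the box in capitals.
Egr2, chr20:21054465-21054574, minus strand: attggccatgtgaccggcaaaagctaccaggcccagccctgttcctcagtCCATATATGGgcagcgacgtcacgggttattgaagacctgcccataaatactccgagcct

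The return from above also held genes outside that list. Hoxb6, a homeodomain factor, read 6.64, 6.63, 7.72 and 6.35 and ended below vehicle. Smad7, an inhibitor of TGF-beta signaling, read 7.38, 7.21, 8.87 and 7.58, and Ch25h, which makes 25-hydroxycholesterol, 8.44, 8.54, 9.70 and 8.59. Rnf122, a ubiquitin ligase, read 6.42, 6.68, 7.08 and 5.81, and its call (limma adjusted p = 0.0228) was lost without the vehicle 0 h or 12 h array. Of the 14 genes, 6 were within 0.5 of vehicle at 12 h. Egr2, Egr4, Fosb, Hoxb6 and Rnf122 reached the signal limit of 7 only on the NaF 6 h array. They were thus members only because they were high there.

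The genes that started late downward had varied roles. Aass, the first enzyme of lysine breakdown, had the largest negative shift, -3.25, with 7.31, 7.96, 6.91 and 4.31. The vehicle signal climbed by 0.65 in that interval, and the fall between the NaF arrays was 2.60 on the log2 scale (limma standard error 0.39, adjusted p = 0.00591). Ncam1, a cell adhesion molecule, read 7.62, 7.78, 7.81 and 5.77 (shift -2.19), and Magi1, a scaffold of cell junctions, 8.37, 8.56, 8.63 and 6.72 (shift -2.10). On these probe sets the NaF 12 h array alone was low. The other Magi1 probe set read 6.86, 7.11, 7.98 and 6.69, so that it was 1.13 above vehicle at 6 h and returned from there (shift -1.54). Palld, which organizes actin bundles, Igsf3, a membrane protein of the immunoglobulin superfamily, and Ephb6, an ephrin receptor, shifted by -1.74, -1.93 and -1.72. Vim, the gene of vimentin, read 11.32, 11.33, 11.23 and 10.16. Rbp2 and Rbp7, which carry retinol inside cells, shifted by -1.71 each, and Aqp3, a channel for water and glycerol, by -1.50. Of the 106 genes, 92 were 2-fold below vehicle at 12 h.

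A smaller set had begun to fall by 6 h and went further. Pycard, the adaptor of inflammasomes, read 8.14, 8.15, 7.25 and 5.56 (shift -1.70, limma standard error 0.11, adjusted p = 0.00231). Serpinb10, a serine protease inhibitor, read 9.61, 9.61, 8.99 and 7.16, and Sdr16c5, a retinol dehydrogenase, 9.82, 10.04, 8.49 and 7.05. Fat2, a giant cadherin of epithelia, read 7.02, 7.10, 5.89 and 4.41. In each of them NaF 6 h lay between vehicle and NaF 12 h, which follows largely from the sorting into this course. Evpl, which encodes envoplakin of the cornified envelope, also kept falling (shift -1.01).

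Of 33 genes of squamous differentiation and keratins on the array, 24 passed the limit. Of these 24, 4 rose (16.7%) and 10 fell (41.7%), 1 shifted 2-fold upward and 5 downward, with a median shift of -0.37. Dmkn, a secreted protein of differentiating epidermis, read 12.02, 12.16, 11.70 and 10.56 (shift -1.28), and Krtdap, a protein of stratified epithelia, shifted by -1.06. Krt15 (-1.48) and Krt13 (-1.05) were 2-fold shifted but not called (limma adjusted p = 0.188 and 0.313), and the Krt15 shift was -0.85 with the mean of the vehicle arrays as baseline. Krt15 was called lower with vehicle fitted as a line (limma adjusted p = 0.0083) and without vehicle 12 h (0.0357), and went up to 0.276 without vehicle 6 h. Of 13 epithelial markers that passed the limit 7 fell and 0 rose, and 2 fell without the vehicle 6 h array. In bulk RNA, fewer cells of a kind and less RNA per cell cannot be told apart. S100a8, a subunit of calprotectin, moved the other way, at 7.36, 7.26, 7.36 and 8.98 (shift 1.72). Of the 4 squamous genes that rose 2 still did without vehicle 6 h. Of 26 junction and integrin genes, 2 rose and 13 fell (50%) with a median shift of -0.32, and 1 rose without vehicle 6 h or vehicle 12 h. Itgb5, an integrin subunit, read 9.38, 9.40, 9.15 and 7.89 and was the only member past 2-fold (-1.27). Gjb2, the gene of connexin 26, and Dsg2, a desmosomal cadherin, fell with shifts of -0.90 and -0.67. The calls of both were lost without the vehicle 3 h array, that of Gjb2 also without vehicle 0 h and that of Dsg2 also without vehicle 6 h.

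Of 22 Bcl-2 family and caspase genes, 6 rose (27.3%) and 5 fell (22.7%), near the shares of all genes (22.1% and 20.3%), 3 shifted 2-fold upward and 1 downward, with a median shift of 0.21. Cflar, the inhibitor of caspase-8 activation, read 6.28, 6.13, 6.73 and 8.80 (shift 2.22), but its other probe set shifted by only 0.27. Bcl2a1, an antiapoptotic protein, read 5.29, 5.23, 5.85 and 7.18, and Casp4, an inflammatory caspase, 6.69, 6.64, 7.32 and 8.56, and both kept rising. Mcl1, also antiapoptotic, rose with a shift of 0.81. Of 15 targets of p53, 6 rose (40%) and 3 fell (20%) with a median shift of 0.05. Gadd45a, a growth arrest gene, and Aen, a nuclease, were past 2-fold (1.13 and 1.04, the latter 0.94 with the mean of the vehicle arrays as baseline). Ei24, an ER membrane protein, fell with a shift of -0.70.

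Single mitotic genes took different courses. Plk1, a kinase of mitotic entry, read 9.29, 9.40, 7.33 and 8.38, and Ccna2, the gene of cyclin A2, 10.20, 10.12, 8.50 and 9.41. Both rose from a low at 6 h and were still below vehicle at 12 h. Nusap1, a spindle protein, read 9.10, 9.47, 8.63 and 7.93 (shift -1.06), and Pttg1, which encodes securin, 9.48, 9.79, 9.49 and 8.86, so these were lowest at 12 h. The other Nusap1 probe set shifted by -0.82 and was not called (limma adjusted p = 0.0584). Of 33 members 4 rose (12.1%) and 6 fell (18.2%), both under the shares of all genes (22.1% and 20.3%), with a median shift of -0.17 and medians of -0.24, -0.77 and -0.98 against vehicle at 3, 6 and 12 h. Without 1 vehicle array, 2 to 6 rose and 1 to 5 fell: without vehicle 0 h 3 fell, without vehicle 3 h 2 rose and 2 fell, and without vehicle 6 h 2 rose and 1 fell. The calls of Nusap1 and Pttg1 were lost without vehicle 0, 3 or 6 h, and the vehicle signal of both climbed between 6 and 12 h.

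Of 44 DNA replication genes, 7 rose (15.9%) and 21 fell (47.7%), with 1 shifted 2-fold and a median shift of -0.30. Gins1, a subunit of the replicative helicase, was the only member past 2-fold (7.98, 7.94, 7.44 and 6.32). Lig1, the ligase of Okazaki fragments (-0.87), and Tk1, thymidine kinase (-0.84), fell, although 1 of the other 2 probe sets of Tk1 shifted by -0.09. Orc2, of the origin recognition complex, rose with a shift of 0.77. Without the vehicle 6 h array, 3 rose and 17 fell, and without vehicle 12 h 4 rose and 18 fell.

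The cholesterol, respiratory chain and autophagy lists held 0 genes shifted 2-fold. Of 18 cholesterol synthesis genes, 0 rose and 10 fell (55.6%), with a median shift of -0.42. Srebf2, the regulator of the pathway, read 9.19, 9.13, 9.19 and 8.23 (shift -0.90). Idi1, an isomerase of isoprenoid synthesis, came back from 1.02 above vehicle at 6 h to 0.20, and its call was lost without the vehicle 3 h or 6 h array. Of 32 genes of the respiratory chain and ATP synthase, 0 rose and 7 fell (21.9%, near the 20.3% of all genes), with a median shift of -0.18 and -0.54 for Ndufa4 as the largest. Without the vehicle 6 h array, 6 cholesterol genes and 2 respiratory genes fell, and without vehicle 12 h 4 respiratory genes did. Of 24 autophagy and lysosome genes, 3 rose (12.5%) and 9 fell (37.5%), such as Atg16l1 (0.70) and Wipi1 (-0.85). The median shift was -0.12, and 1 rose without vehicle 6 h.

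Most circadian clock genes rose. Of 13, 8 rose (61.5%) and 0 fell, against 22.1% and 20.3% of all genes, and 2 shifted 2-fold upward. Their shifts ran from -0.20 to 1.46 with a median of 0.52. Against vehicle the medians were -0.10, -0.15 and 0.82 at 3, 6 and 12 h. Per2, a repressor of the clock, read 7.86, 7.89, 7.40 and 8.89 (shift 1.46), and a dimmer probe set of it shifted by 0.34. Dbp, a bZIP factor of clock output, had a shift of 1.09 and Nr1d1, the receptor REV-ERB alpha, one of 0.99. Of 27 Golgi and coat protein genes, 12 rose (44.4%) and 1 fell (3.7%), and 2 shifted 2-fold upward (median shift 0.23). Without the vehicle 6 h array 7 rose and 0 fell. Arfgap3, which releases COPI coats, read 8.09, 8.04, 8.12 and 9.41, and Mcfd2, a cargo receptor partner, 9.98, 9.98, 9.90 and 11.11.

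Acot2, a mitochondrial acyl-CoA thioesterase outside all lists, had the largest shift of the late upward starts. It read 6.94, 6.77, 6.69 and 9.46, with NaF 12 h alone apart (shift 2.93, limma standard error 0.13, adjusted p = 0.00231). Amigo3, a membrane protein with leucine-rich repeats, read 6.38, 6.00, 6.43 and 8.64, and Slc25a33, a mitochondrial carrier of pyrimidine nucleotides, 6.78, 6.68, 7.02 and 8.99. Fgf9, a fibroblast growth factor, and Ankrd37, a gene induced by hypoxia, kept rising with shifts of 2.23 and 1.69. Ankrd37 was 0.63 below vehicle at 3 h and 0.77 above it at 6 h. Acot2, Amigo3 and Ankrd37 reached the signal limit of 7 only on the NaF 12 h array, so they were members only because they were high there. The same holds for Sel1l, Pck2, Slc7a11, Gmppb, Cflar, Bcl2a1, Dbp and Nr1d1. Il6, Ero1b, Fgf9, Slc25a33, Tslp, Casp4, Tnf, Fos and Nr4a2 reached it only on the NaF arrays, where they were high. Aass, Fat2 and Krt15 reached it only on the vehicle arrays, so they were members only because they were high there.

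The remaining stress and signaling lists were mixed. Of 18 targets of NRF2, the regulator of antioxidant genes, 3 rose (16.7%) and 6 fell (33.3%) with a median shift of -0.18. Hmox1, which degrades heme, rose with a shift of 0.94 and Aldh3a1, an aldehyde dehydrogenase, fell with one of -1.44. Of 20 heat shock proteins of the cytosol and mitochondria, 7 rose (35%) and 3 fell (15%) with a median shift of 0.09. Among those that rose were the mitochondrial chaperone Hspa9 (0.78) and protease Lonp1 (0.80), whereas the small heat shock protein gene Hspb1 fell (-0.75). Of 24 glycolysis and hypoxia genes 6 rose (25%) and 3 fell (12.5%), and 3 rose without vehicle 12 h. The share that rose is near that of all genes. Those that fell included the phosphofructokinase genes Pfkm (-0.82) and Pfkp (-0.66). In the TGF-beta and BMP list 3 of 17 genes rose (17.6%) and 4 fell (23.5%), near the shares of all genes, and 1 rose without vehicle 3 h, 6 h or 12 h. Its ligand Tgfb2 shifted by -1.18 and Tgfbi, an extracellular protein induced by the pathway, by -1.21, or -0.89 for Tgfbi with the mean of the vehicle arrays as baseline. The other Tgfb2 probe set shifted by -0.89, under 2-fold. Of 13 metalloproteinase and plasminogen genes 3 fell (23.1%, near the 20.3% of all genes, and 1 without vehicle 6 h), with Plau, the gene of urokinase, at -0.70. Common reference genes were not all level: of 9, Tbp (0.85) and Tfrc (0.53) rose and Gusb (-0.61) and Hprt1 (-0.39) fell.

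**Figure D5:**
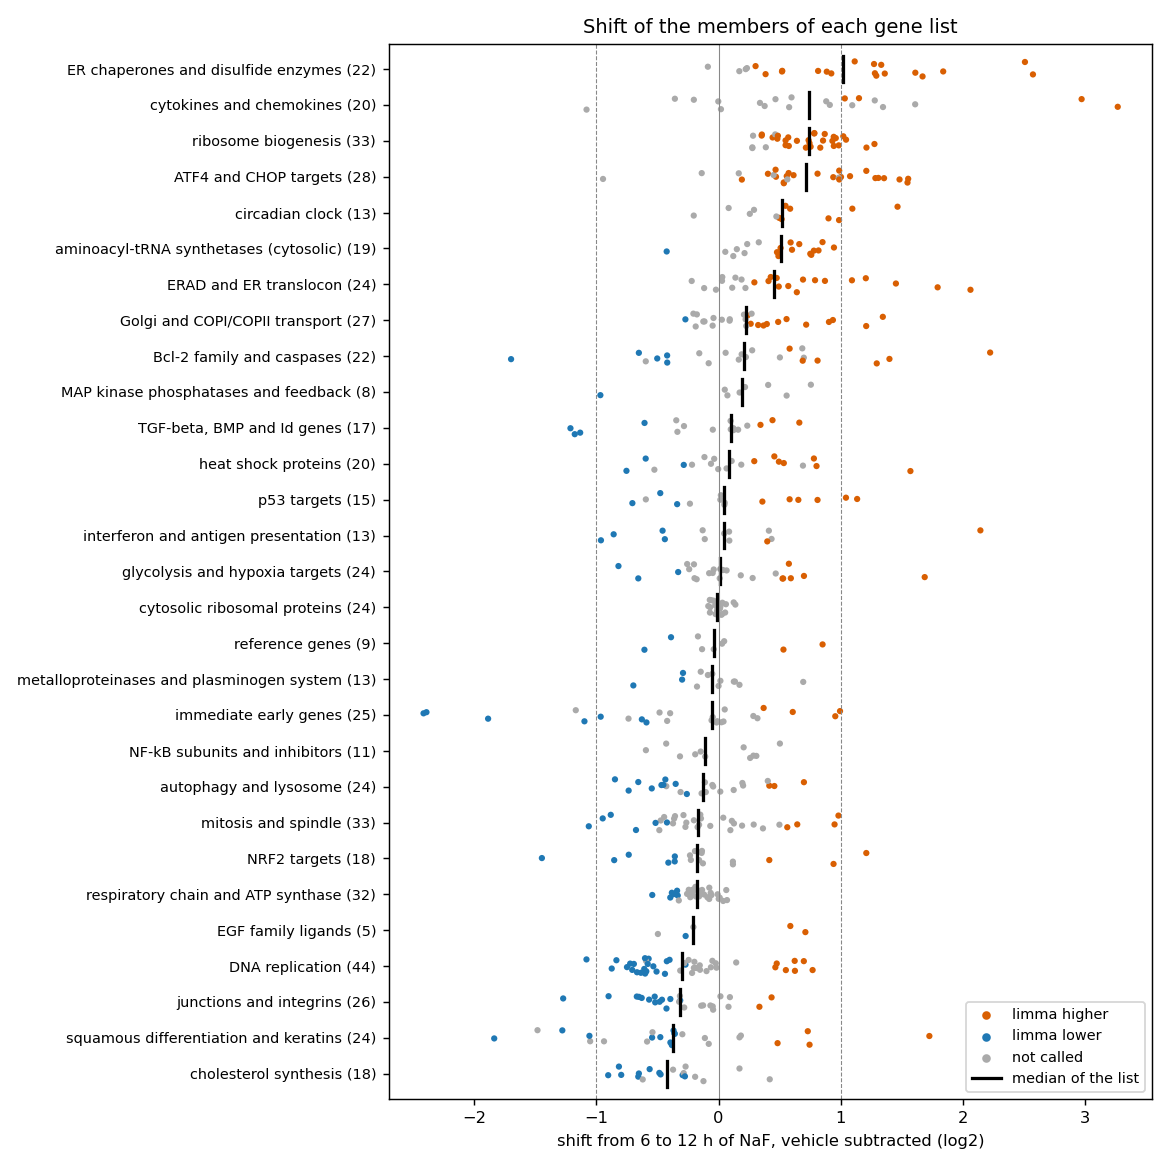
Shift from 6 to 12 h (x axis, log2, vehicle subtracted) of each member of the gene lists, ordered by the list's median (black bar), with the number of members in brackets. Orange and blue points are genes that limma called higher or lower in NaF 12 h than in NaF 6 h; ER chaperones lie highest with a median of 1.02 and cholesterol synthesis lowest with -0.42, while cytosolic ribosomal proteins lie around 0.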

How the data were processed

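RNA was measured on 7 Affymetrix rat arrays, 1 for each treatment and time, each holding a pool of 3 experiments. The log2 signals deposited by the authors came from GeneSpring GX; for its version and normalization the sources used here give nothing. They were used without further scaling. Probe sets were named through the platform annotation, where 20826 had 1 symbol, 436 several and 9831 none. The array's own control probe sets, which include those for Gapdh, were left out. Limma 3.58.1 in R 4.3.3 (lmFit, eBayes, Benjamini-Hochberg) compared NaF 12 h with NaF 6 h on 11608 probe sets, named or not. The 4 vehicle arrays formed 1 group (3 residual and 2.68 prior degrees of freedom). Limma was also run on simulated data, which gave the NaF arrays the spread of the vehicle arrays. That run therefore could not check whether lone NaF arrays vary like vehicle. Precision is limited by the number of arrays. Members had a median vehicle SD of 0.0785 and a median standard error of 0.108 on the log2 scale. The p-values reflect only how pooled vehicle samples of different times differed.

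The members and lists were chosen with earlier results of these data known. Named were the 15 genes with the largest shift in each direction, the 5 largest of each course, up to 4 of each list, and Atf3, Atf4, Ddit3, Fos, Hspa5 and Gapdh. Other named genes were chosen after their values were seen. Motifs were searched in 250 bases before the start of the RefSeq promoters of GRCr8, matched by symbol for 6602 of 7771 genes. Alternatives were other folds, signal limits, 6 h limits, scalings and baselines, averaging the probe sets of a gene, a variance trend, vehicle fitted as a line over time, and each vehicle array left out.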

Additional observations from a re-analysis of the deposited data

How the results depend on the processing

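No paired analysis was possible because each group had 1 array. The counts of courses in this section are of probe sets, not genes. In the main setting 144 started late upward and 121 downward. Of the others, 41 kept rising, 21 kept falling, 16 returned from above and 126 from below. At 2.5-fold, 110 probe sets shifted upward and 46 downward, with 49 and 33 late starts, 21 that kept rising, 7 that kept falling and 6 and 40 returns from above and below. With a signal limit of log2 8, 103 shifted downward, 80 started late downward and 9 returned from above. Without a limit these numbers were 249, 192 and 29, and limma called 1408 higher and 1172 lower. A limit at 6 h of 0.3 gave 95 late upward starts, 63 that kept rising and 48 that kept falling, and 0.7 gave 10 that kept falling. The cause of these differences was not tested beyond the change of limit itself. Without 1 vehicle array, limma called 1518 to 2157 higher and 1184 to 1898 lower. The lowest counts came without vehicle 6 h, where 2698 of the 3953 calls and 442 of the 469 shifted probe sets were still called. No named shift changed sign, but the balance of counts turned: late starts were 144 upward and 121 downward, and 124 and 138 after quantile normalization, 166 and 168 at a limit of log2 6 and 190 and 192 without a limit. Limma called 2126 higher and 1827 lower, and 2103 and 2235 after quantile normalization. For 59 shifted genes with other members, 28 had every probe set past 2-fold the same way and 1 had a probe set of opposite sign. Signal near the array floor limits differences of dim genes.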
